A study of Mus musculus with 3 samples.

Results

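The 7 genes Gas5, Snhg1, Snhg3, Snhg5, Snhg6, Snhg8 and Snhg12 are mouse host genes of small nucleolar RNAs (snoRNAs) that make no known protein. They were taken by name from the GENCODE M21 annotation (mm10), with every poly(A) site on the gene's strand between its start and 1000 bases past its end. This gave 59 of the 178115 listed sites. The data come from PAS-seq, made with QuantSeq per the labels, in which each read marks the 3′ end of a polyadenylated RNA. The cells were F121-9, hybrid embryonic stem (ES) cells of the mouse strains CAST and 129. They were sequenced in 1 group of 3 libraries, labelled as biological replicates 1, 2 and 3, all at passage 14 and from 500 ng of RNA. The libraries come from 1 line, with no treatment and no control group. Separate cultures are not named in the labels, and part of the spread between replicates may be technical. All comparisons are therefore between genes or sites within the line.

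A snoRNA host gene is transcribed as a long precursor and spliced. The snoRNAs lie in its introns and are trimmed out of them, and the exons are joined into a polyadenylated RNA. Box C/D snoRNAs guide 2′-O-methylation and box H/ACA snoRNAs guide pseudouridylation of ribosomal and other RNAs, and the mature forms generally carry no poly(A) tail. Gas5, Snhg1 and others of these genes belong to the 5′ TOP class, whose spliced RNAs are engaged by ribosomes and decay quickly as translation proceeds.

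The libraries held 11085428, 14855484 and 14064461 reads in the RPM denominator (reads at a site scaled to the library total) of replicates 1, 2 and 3. Autosomal sites held 9326090, 12500338 and 13040404 of them. Replicate 3 had 0 reads on the X, Y and mitochondrial chromosomes, so its RPM of autosomal genes are on a higher scale, and comparisons with other genes used the 19 autosomes, where all 7 host genes lie. Of 6 pluripotency markers, all were detected. Nanog averaged 723 RPM, Sox2 611 RPM, Esrrb 298 RPM, Pou5f1 102 RPM, Klf4 78.3 RPM and Zfp42 20.8 RPM. Of 6 fibroblast markers, Thy1 and Vim averaged 84.4 and 71.6 RPM, and the collagen genes Col1a1, Col1a2 and Col3a1 averaged 2.27, 1.43 and 0.0898 RPM. In replicates 1, 2 and 3, Col1a1 was at 0.0902, 0.606 and 6.11 RPM and Col1a2 at 0, 1.08 and 3.20 RPM. Col3a1 was at 0, 0.269 and 0 RPM. The fibroblast marker Dcn was at 0 in all 3 libraries. Of the lineage markers, T averaged 6.93 RPM, and Gata4, Gata6 and Pax6 averaged 2.34, 0.281 and 0.0449 RPM.

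The sequences at the most used site of each host gene show where its spliced RNA ended. Each line gives the 30 bases that end at the site, 5′ to 3′ on the gene's strand, from the GRCm38 (mm10) reference. Capitals mark the poly(A) signal AATAAA or its common variant ATTAAA.
Snhg1, chr19:8726413-8726442, plus strand: tttgttctagcAATAAAtgctctttatgct
Gas5, chr1:161038534-161038563, plus strand: catgaactgtgaagtgtgcattttgttctg
Snhg3, chr4:132351934-132351963, minus strand: ttaaaatctgaATTAAAgcatttgaatgtc
Snhg5, chr9:88521055-88521084, minus strand: ggagtattgaAATAAAaaacattcaattgc
Snhg12, chr4:132310995-132311024, plus strand: agttggttcAATAAAgacttttggaaagtg
Snhg6, chr1:9942025-9942054, minus strand: taagttatatataAATAAAcagttattctt
Snhg8, chr3:123507611-123507640, minus strand: gtctctggtcaacttacagggaatcttcgc
In 4 genes this stretch holds AATAAA, and in Snhg3 it holds ATTAAA, with between 11 and 15 bases left before the site. The Gas5 site lay 24 bases past the annotated gene end. Its deposited signals are an ATTAAA and an ATTATA, with first bases at offsets -47 and -37 from the site. That ATTAAA appears in the 30 bases ending at the annotated gene end, chr1:161038510-161038539: ttttaccATTAAAgtgtattataacatgaa. The Snhg8 site lay at -54 bases from the closest annotated transcript end (negative is upstream) and has no deposited hexamer. An AATAAA lies past that site, in the 30 bases ending at the annotated Snhg8 gene end, chr3:123507552-123507581 on the minus strand: attaAATAAAagatgtttggtgtgtaataa.

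Reads of 3′ ends count about 1 read per RNA end, so gene levels in RPM were compared between genes without division by length. The host genes spanned a wide range, from 791 RPM on average for Snhg1 to 6.18 RPM for Snhg8. These levels cannot tell more cells with an RNA from more RNA per cell, and they describe steady-state ends, not transcription.

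Snhg1 hosts 8 annotated snoRNA loci on chromosome 19 (8723475 to 8726443) and was at 761.7, 773.9 and 837.4 RPM in replicates 1, 2 and 3 (mean 791 ± 40.7 RPM, SD, n = 3). Gas5, named for its rise in growth-arrested cells and known as a decoy for the glucocorticoid receptor, hosts 9 loci on chromosome 1 (161034422 to 161038539). It was at 767.2, 693.1 and 801.1 RPM (mean 754 ± 55.2 RPM, SD, n = 3). The Snhg1 and Gas5 levels overlapped, and Snhg1 was the higher in 2 of 3 libraries.

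Snhg3, on chromosome 4 (132348014 to 132353686), hosts the H/ACA RNAs Snora73a and Snora73b and was at 672.2, 626.9 and 681.1 RPM (mean 660 ± 29.1 RPM, SD, n = 3). Its highest library was below the lowest of Gas5, with a ratio of means, Gas5 over Snhg3, of 1.14. Snhg5, on chromosome 9 (88521050 to 88522929), hosts the C/D RNAs Snord50a and Snord50b and was at 251.4, 230.6 and 263.6 RPM (mean 249 ± 16.7 RPM, SD, n = 3). The Snhg3 level was 2.66 times the Snhg5 level, and the libraries did not overlap.

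Snhg12, on chromosome 4 (132308623 to 132311024), hosts Snora16a, Snora44, Snora61 and Snord99 and was at 78.6, 63.7 and 79.7 RPM (mean 74.0 ± 8.94 RPM, SD, n = 3). Snhg6, on chromosome 1 (9941959 to 9944118), hosts Snord87 and was at 8.66, 64.4 and 29.9 RPM (mean 34.3 ± 28.1 RPM, SD, n = 3). Replicate 1 was the low library for Snhg6, at 96 reads against 957 and 421 reads. Snhg12 and Snhg6 overlapped, with Snhg12 the higher in 2 of 3 libraries, so their order is not set by these data. Snhg8, on chromosome 3 (123507552 to 123508404), hosts Snora24 and was at 2.80, 8.15 and 7.61 RPM (mean 6.18 ± 2.95 RPM, SD, n = 3), from 31, 121 and 107 reads. It was the lowest of the 7 in every library.

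**Figure D1:**
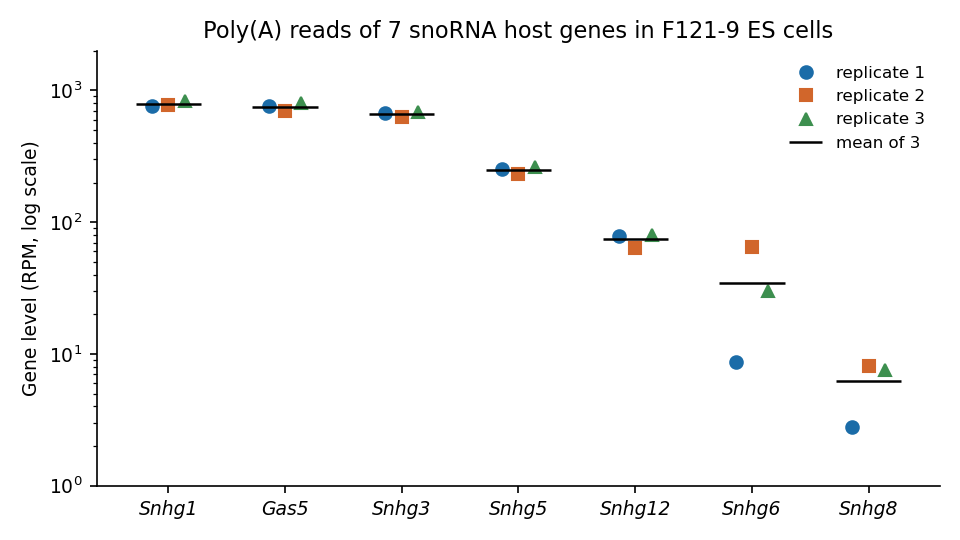
Level of each host gene in RPM on a log scale, ordered by the mean, with 1 point for each of the 3 libraries and a line at their mean. Snhg1, Gas5 and Snhg3 lie between 626.9 and 837.4 RPM, and Snhg6 spreads from 8.66 to 64.4 RPM.

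Against the rest of the autosomal transcriptome, the upper host genes were among the most abundant genes that GENCODE M21 types as non-coding. Here only exonic and downstream sites assigned to a gene were summed, and a gene was counted at a mean of 1 RPM or more. Snhg1, Gas5 and Snhg3 ranked 2, 3 and 4 among 495 non-coding genes, and Snhg5 ranked 8. Rank 1 was Gm42418, at 60391 RPM. The ranks depend on the GENCODE types, which also place Cct6a (632 RPM) and Ifi30 (136 RPM), named like protein genes, in this set. Snhg12, Snhg6 and Snhg8 ranked 20, 34 and 149. Among all 12416 autosomal genes, Snhg1 stood at the 99.2 percentile, Snhg5 at the 95.5 percentile and Snhg8 at the 25.8 percentile, where the median gene had 16.4 RPM and the median non-coding gene 2.54 RPM.

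**Figure D2:**
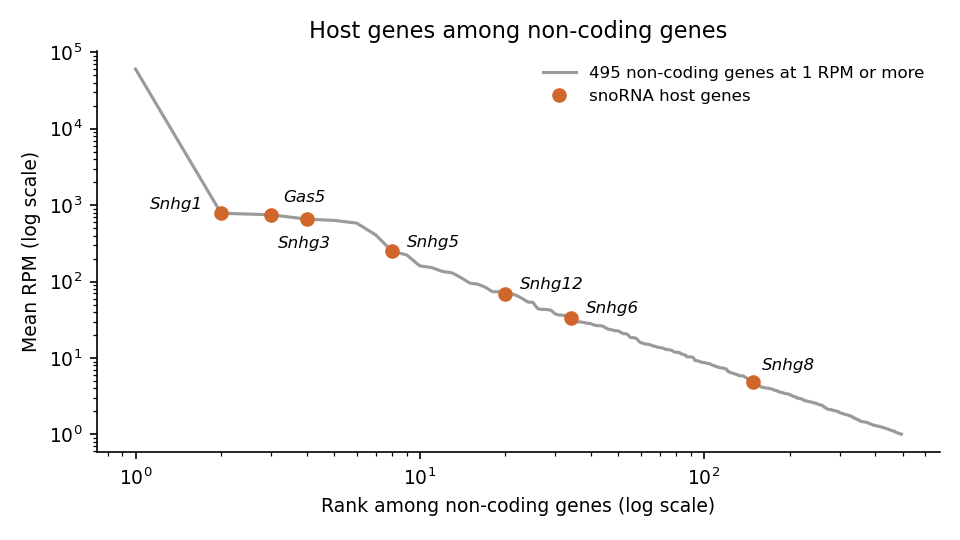
Mean RPM of 495 non-coding autosomal genes against their rank, both on log scales (line), with the 7 host genes as points. Snhg1, Gas5 and Snhg3 take ranks 2, 3 and 4, and Snhg8 takes rank 149.

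The spread between libraries was widest for Snhg6. Its coefficient of variation (SD over mean) was 81.9%, at the 99.7 percentile of the 5914 genes between 10 and 100 RPM, whose median was 20.0%. Snhg12, in the same range of levels, varied by 12.6%. For Snhg1, Gas5, Snhg3 and Snhg5 the coefficient was 4.74%, 7.41%, 4.48% and 6.72%, below the median of 10.96% for the 1543 genes between 100 and 1000 RPM. The scale matters for Snhg1. Summed over all its sites, its coefficient was 5.14% in RPM and 0.982% with RPM rescaled to autosomal reads, where its libraries were at 905.4, 919.7 and 903.2 RPM. For Gas5, Snhg3, Snhg5 and Snhg6 the autosomal scale gave 5.10%, 4.56%, 4.37% and 85.0%.

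Other genes of the snoRNA pathway were read from 2 lists. Of 14 other snoRNA hosts found in the annotation, 13 reached 1 RPM, 10 reached 10 RPM and 2 reached 100 RPM. The list was meant for non-coding hosts, but GENCODE M21 types Snhg11 (70.6 RPM), which is in these counts, as protein-coding. The 4 highest were Zfas1 at 582 ± 120 RPM, Epb41l4aos at 223 ± 21.6 RPM, Snhg20 at 92.5 ± 19.3 RPM and Snhg9 at 73.7 ± 17.0 RPM (SD, n = 3 each). Of 18 proteins of snoRNA particles and their assembly, 18 reached 1 RPM, 17 reached 10 RPM and 9 reached 100 RPM. Dkc1, the pseudouridine synthase of H/ACA particles, is X-linked and was at 958.3 and 922.0 RPM in replicates 1 and 2. The H/ACA proteins Nop10 and Nhp2 were at 313 ± 29.9 and 303 ± 17.4 RPM, and Nop56, a core protein of C/D particles, at 302 ± 34.4 RPM (SD, n = 3 each).

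The most used site of each host gene over all libraries held over 50% of its reads in every library, apart from Snhg6 in replicate 1. There it held 33.3%, and another terminal exon site held 66.7%. Of all reads at the 59 sites, 96.0%, 96.5% and 96.8% lay at the 7 most used sites in replicates 1, 2 and 3. The most used site held 99.2% ± 0.121 of Snhg3 reads, 98.6% ± 0.581 of Snhg5 reads, 95.6% ± 0.661 of Snhg1 reads, 95.0% ± 1.33 of Gas5 reads and 93.6% ± 3.83 of Snhg12 reads (SD, n = 3 each). It held 72.6% ± 8.59 of Snhg8 reads, with 63.6% in replicate 3 as the lowest, and 74.5% ± 35.8 of Snhg6 reads (SD, n = 3 each). Over the sites assigned to each gene, the most used site held between 90.1% (Snhg6) and 99.8% (Snhg3), against a median of 90.4% over 11987 genes with at least 50 reads. These are shares of the mean RPM, without sites assigned to snoRNA genes, and not means of library shares as above. The low replicate 1 of Snhg6 therefore weighs less in the 90.1% than in the 74.5%. Of the 59 sites, 20 had reads in all 3 libraries and 25 in 1 library only.

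By overlap of their ranges, 27 sites apart from the snoRNAs were assigned to terminal exons, the most used sites among them, and held 101711 of the reads. The main Gas5 site is one of these by its range, although its position lies past the annotated exon. The main Snhg3 site lay at -3920 bases from the annotated gene end (negative is upstream), at the annotated end of a shorter transcript. Rcc1, a protein-coding gene, overlaps Snhg3 on the same strand, and 1 intronic site of 39 reads in replicate 3 alone was assigned to it. In Gas5, a second site 58 bases before the main one had 39.6, 23.6 and 23.3 RPM. In Snhg1 a second site, 104 bases before the main one, had 21.1, 25.5 and 30.2 RPM. On the opposite strand of the 7 genes, 1 site of 10 reads was listed, in Gas5.

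Most host gene reads ended after 1 of the 2 main hexamers. A site with several deposited hexamers was counted under AATAAA if it had it, and otherwise under ATTAAA if it had that. ATTAAA was the deposited signal at sites with 53.4% ± 1.19 of host gene reads, against 14.1% ± 0.179 of reads at the assigned sites of 11987 genes with at least 50 reads (SD, n = 3 each). AATAAA went with 44.1% ± 1.36 of host gene reads, against 64.6% ± 0.739 over those genes (SD, n = 3 each). The ATTAAA share came from the main sites of 2 genes, Gas5 and Snhg3, and members weigh by their reads, so no test was made. Counted by gene, ATTAAA lay at the main site of 2 of the 7 host genes, against 15.7% of the 11987 genes, and no hexamer at that of 1 (Snhg8), against 4.88%. When the 18 hexamers were instead searched in the 40 bases before each site, the ATTAAA share was 25.6%, because the Gas5 ATTAAA lies farther from the site. The main Gas5 site then counted under another hexamer, as its deposited ATTATA is at offset -37.

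In Snhg6 and Snhg8, 2 assigned sites each held at least 5% of the reads. The second Snhg6 site lies 65 bases past the main one, and the 30 bases that end there, chr1:9941960-9941989 on the minus strand, also hold an AATAAA: tctcgtagtaaAATAAActcgtctttcatg. The distal site had 64, 62 and 0 reads in replicates 1, 2 and 3, and the proximal site had 32, 883 and 412 reads. The distal share was therefore 66.7% in replicate 1, 6.56% in replicate 2 and 0% in replicate 3, where a count of 0 allows up to 0.213 RPM at 3 reads. Replicate 1 had the distal site higher, and the other 2 libraries the proximal one.

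Distal over proximal ratios were fitted for all genes with at least 2 terminal exon sites of at least 5% of reads, with limma on log2(RPM + 0.05). Of 5673 genes tested, 32.8% were called with the distal site higher and 12.9% with the proximal site higher, at an adjusted p under 0.05 and at least 2-fold. Only Snhg6 and Snhg8 entered this fit, since the other 5 genes had 1 site above 5%. For Snhg6 the log2 ratio was -4.01 ± 1.25 (SE), with a Benjamini-Hochberg adjusted p of 0.0130 (limma), and the proximal site was higher in 2 of 3 libraries. For Snhg8 it was -3.61 ± 1.63 (SE), with an adjusted p of 0.0758 (limma), and the proximal site was higher in 3 of 3 libraries. These calls depend on how limma estimates the variance. The first fit used a constant prior variance, and the trend over the mean level was adopted after simulated data, with both results in view. Under the constant prior the 2 calls changed places, with an adjusted p of 0.228 for Snhg6 and 0.0438 for Snhg8. The Snhg6 call was also lost without replicate 2 (adjusted p 0.219, limma), without replicate 3 (log2 ratio -1.41, adjusted p 0.296, limma) and with edgeR on recovered reads (adjusted p 0.0768). It was lost as well at a site minimum of 1% (adjusted p 0.0565, limma) and with no minimum of reads per gene (adjusted p 0.0988, limma). Neither gene therefore has a call that holds under every setting, and the read counts above carry the description.

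**Figure D3:**
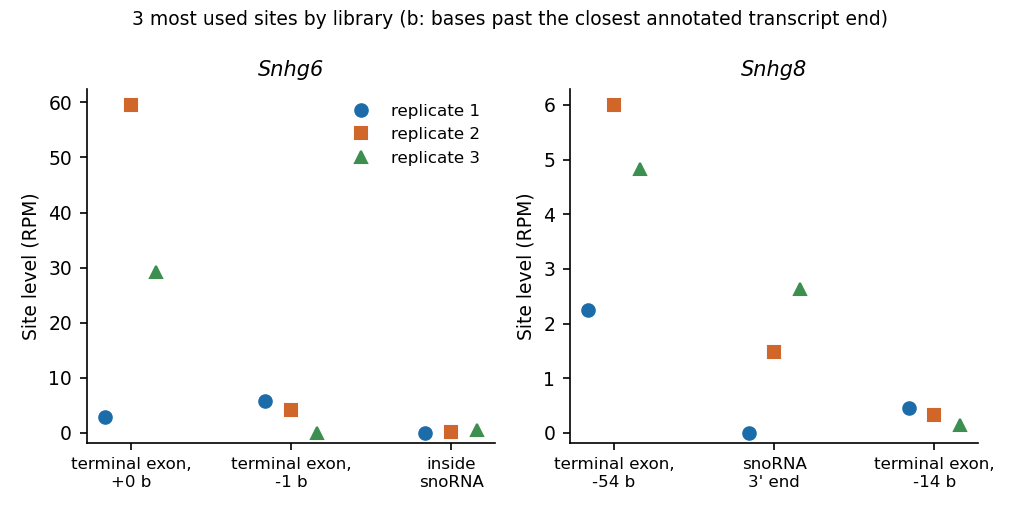
RPM at the 3 most used sites of Snhg6 (left) and Snhg8 (right), 1 point per library, with each terminal exon site marked by its distance in bases from the closest annotated transcript end. The main Snhg6 site runs from 2.89 RPM in replicate 1 to 59.4 RPM in replicate 2, and the Snhg8 site at the snoRNA end is at 0 in replicate 1.

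A further group of sites lay at the 3′ ends of the snoRNAs inside the host genes. Of 27 annotated snoRNA loci in the 7 genes, 18 (66.7%) had a site within 10 bases of the snoRNA 3′ end, with 743 reads. At the 5′ ends and the middles of the same loci, the same window held 0 sites, and 100 bases downstream it held a site at 3 loci with 55 reads. Across all 1419 autosomal snoRNA loci, 9.87% had such a site. In the 4 host genes at 100 RPM or more, 61.9% of 21 loci had a site, against 44.7% of 132 loci in protein-coding hosts at that level. The 3 lower host genes had a site at 5 of 6 loci, and Snhg5 at 0 of 2. In other non-coding hosts at 10 RPM or more the share was 4.05% of 222 loci, and it was 1.61% of 868 loci with a host under 1 RPM or none. Host level differed between these groups, and its part in the share was not tested. Loci within a gene share a precursor and are not replicates, so no test was made. The window was chosen after sites at snoRNA ends had been seen.

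**Figure D4:**
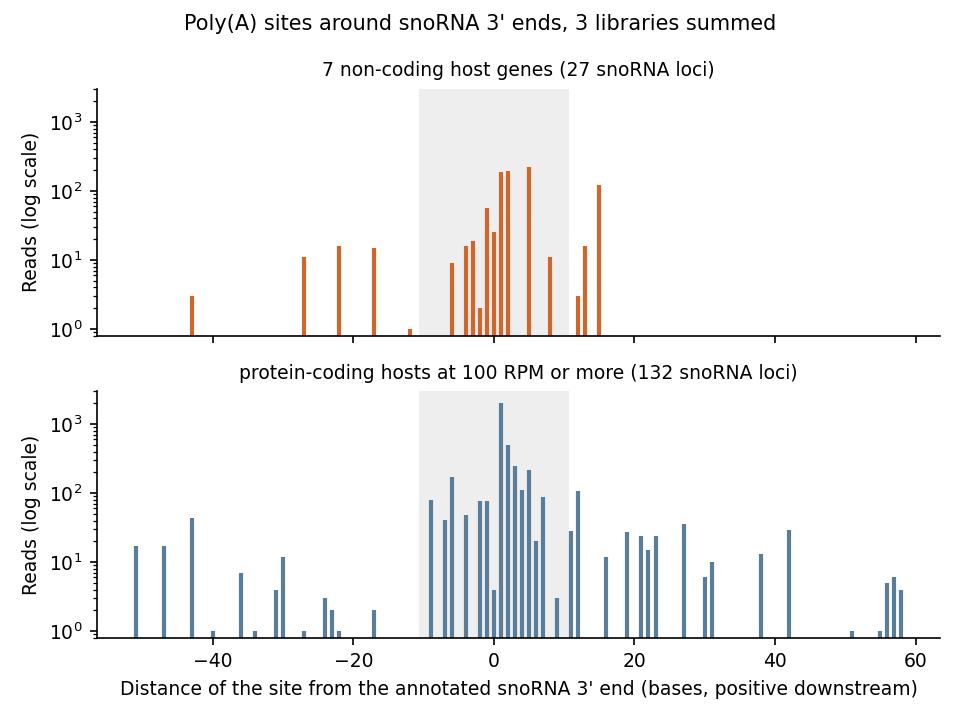
Reads summed over 3 libraries, on a log scale, at each distance in bases from the annotated snoRNA 3′ end, for 27 loci of the 7 host genes (top) and 132 loci of protein-coding hosts at 100 RPM or more (bottom). The grey band marks the 10 bases on either side, which hold 743 reads in the host genes.

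The snoRNA ends with the most reads in 4 host genes are shown because they place these sites in sequence. Each line gives the 30 bases that end at the annotated snoRNA 3′ end, with capitals on CTGA, the D box of C/D RNAs, or on the ACA of H/ACA RNAs.
Gm25894 in Snhg1, chr19:8724296-8724325, plus strand: agtggagaaaacaaaaattctCTGAgtagc
Snora73a in Snhg3, chr4:132352775-132352804, minus strand: ctgaggagacaaaccatgcaggaaACAgtt
Snora16a in Snhg12, chr4:132309571-132309600, plus strand: tgatctgcaacattgtggaaaatgACAgct
Snora24 in Snhg8, chr3:123507937-123507966, minus strand: accagattctgacttgagcaagtgACAttc
On the snoRNA strand, CTGA was found in the last 13 bases of 21 of the 21 host gene loci not named as H/ACA. The farthest CTGA, in Gm26224 and Snord87, had 9 bases after it and just fits that window. The full count therefore describes these loci and is not a test. An ACA exactly 3 bases from the end was found in 5 of 6 loci named as H/ACA. Over all 1419 autosomal loci, which mix both classes, 31.4% held the CTGA and 18.1% the ACA.

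The sites at snoRNA ends had few reads and few hexamers. Of the 18 sites, 15 had no deposited hexamer, and 12 lay within 2 bases of the annotated end. Of the next 20 bases of genome, between 3 and 10 were adenines, and 0 of the 18 sites was A-rich (12 or more adenines, or 6 in a row). Only 4 of the 18 had reads in all 3 libraries, 8 had reads in 2 and 6 in 1, with a median of 19 reads per site. Whether such a read came from a tailed snoRNA or from a host RNA ending there cannot be told apart from its 3′ end.

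Gm25894, a locus in Snhg1 with no named class, had the most reads (216 of 743), at 3.52, 4.64 and 7.68 RPM in the 3 libraries. Unlike most of these sites, it had a deposited hexamer, AACAAA at offset -26. Its position, 8724330, was also more than 2 bases past the annotated end, 8724325. Snora73a in Snhg3, an H/ACA RNA known for its part in ribosomal RNA processing, had 1.98, 4.31 and 1.78 RPM. In Snhg12, Snora16a had 3.34, 0.740 and 2.42 RPM and Snora44 had 3.25, 2.83 and 0 RPM. Snora24 in Snhg8 had 0, 1.48 and 2.63 RPM. Snora44 and Snora24 each had a library at 0, and the 2 loci of Snhg5 and Snora73b in Snhg3 had no site in the window.

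At its snoRNA ends a host gene had between 0% and 17.6% of its reads on average. The share was 17.6% ± 17.3 in Snhg8, from 0%, 18.2% and 34.6% in replicates 1, 2 and 3, and 5.79% ± 2.85 in Snhg12, from 8.73%, 5.60% and 3.03% (SD, n = 3 each). In Snhg1 the share was 0.931% ± 0.425, in Snhg3 0.414% ± 0.237, in Gas5 0.320% ± 0.255 and in Snhg6 0.313% ± 0.543 (SD, n = 3 each). Snhg5 had 0 reads at these ends. Over the 7 genes it was 0.717% ± 0.113 (SD, n = 3). With 31 reads in replicate 1, the 0 of Snhg8 there is not resolved from a small share.

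**Figure D5:**
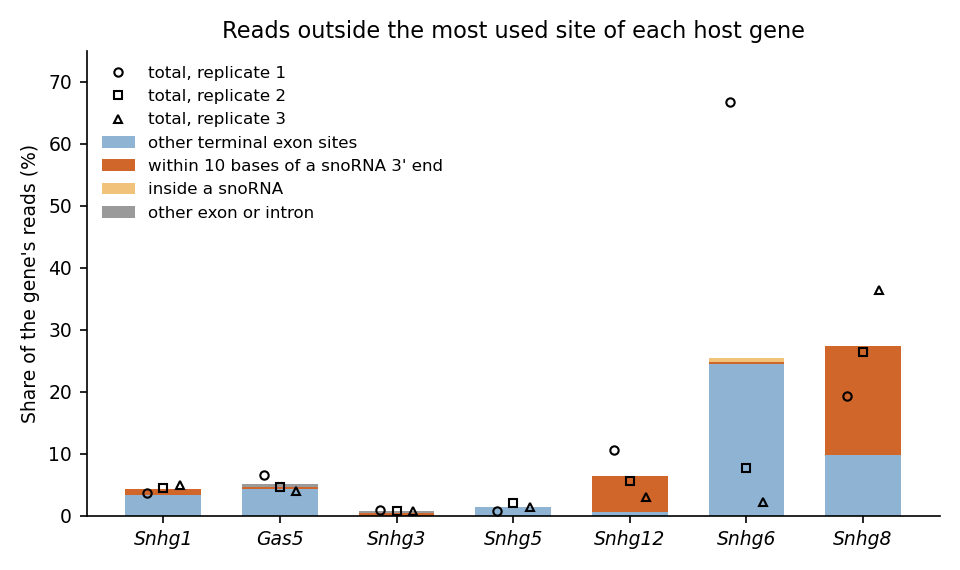
Share of each host gene's reads outside its most used site, in percent, as bars stacked by kind of site (mean of 3 libraries), with open symbols for the total in each library. The Snhg8 and Snhg12 bars are mainly snoRNA 3′ ends (17.6% and 5.79%), and the Snhg6 total runs from 66.7% in replicate 1 to 2.14% in replicate 3.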

How the data were processed

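Sites were called on mm10 with GENCODE M21, per the deposited text files. For the aligner and site caller, the tool is not given in the sources used here, nor is the treatment of reads that map to several places, so near-identical copies are uncertain. Sites carry RPM values made by the authors (unit read from the values). Of the values, 100% were whole multiples of 1 read within 0.01 reads. Reads may not be independent molecules, so floors cover counting error only. Printed bases are the reference genome's, and the line's alleles were not analysed here.

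The 7 members and the lists were chosen with earlier results of these data known, and every gene of a list was counted with its 4 highest named. Sites were assigned by overlap of their range with terminal exons first, then other exons, introns and 1000 downstream bases, and 80 ties were dropped. That choice, in place of the site position, the use of 19 autosomes and the 10-base snoRNA window were set after seeing data. limma 3.58.1 used the library as a block, in genes with at least 50 reads. Same-library sites pair by construction. The plan named limma only, and the first fit had no variance trend. With 5673 genes simulated for the tandem comparison, it called 0 of 100 genes at 4-fold and 0 of 100 at 16-fold, and a trend over the mean level was then added (59 and 91 of 100, and 2 of 5473 equal genes). The real fits of both versions had been seen by then. The simulated reads had a variance in fixed proportion to the mean, a setting that ties the spread of log ratios to the level. In the real data the constant prior variance called 1360 genes. The simulation thus differs from these data and cannot decide between the 2 fits for Snhg6 and Snhg8. edgeR 4.0.16 on recovered reads called 2146 genes, against 2594 with limma. Box classes were read from RefSeq names or from the symbols Snord and Snora.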

Additional observations from a re-analysis of the deposited data

How the results depend on the processing

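The median host gene level was 249 RPM, and 286 when scaled to autosomal reads. With sites read in all 3 libraries, the most used sites held 97.1% of host gene reads and snoRNA 3′ ends 0.409%. ATTAAA went with 25.6% of reads when searched in 40 bases of genome. Leaving out 1 library gave a median level of 241 to 257 RPM, 96.3 to 96.6% at the most used sites, 0.653 to 0.760% at snoRNA ends, 43.5 to 44.8% with AATAAA, 52.9 to 54.0% with ATTAAA, and 13 to 18 snoRNA loci with a site. Windows of 5 and 20 bases, chosen after seeing the data, gave 16 and 23 loci, the site's range 19, and sites in at least 2 libraries 12. The share of reads at snoRNA ends was not recomputed for these windows.

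Tandem calls, 1860 distal and 734 proximal, became 3701 distal at a site minimum of 1%, 1006 at 10%, 986 with 374 proximal under a constant prior variance, and 1173 to 1503 distal and 520 to 615 proximal without 1 library. Assignment by position, chosen after seeing the data, gave 1628 and 657. Host genes called numbered 1 with the trend (2594 called of all 5673 genes). At 1%, Gas5, Snhg1, Snhg6 and Snhg8 were tested, and elsewhere only Snhg6 and Snhg8. Host genes called numbered 2 at a pseudocount of 0.5 RPM (3034 of all 5673 genes). At 1% they numbered 2 (Gas5 and Snhg1, both distal), with 4535 called of all 7778 genes. They numbered 0 with no read minimum (2226 of all 6464 genes) and 2 with no replicate block (2746 of 5673). The count was 0 with edgeR (2146 of 5673), and 0 to 1 without 1 library (1693 to 2118 of 5673). No host gene had 2 sites at 10%, so that setting gave no value for them. The 1 call under the constant prior variance was Snhg8, not Snhg6. At 1% the Snhg8 log2 ratio turned to 1.26 (adjusted p 0.448, limma), since another proximal site entered. With the pairing within libraries dropped (no replicate block), 1974 genes were distal and 772 proximal, and Snhg8 was called (adjusted p 0.0392, limma). Over all alternatives with a test, the adjusted p ran from 0.000354 to 0.296 for Snhg6 and from 0.0114 to 0.764 for Snhg8. The cause of these changes was not tested unless given. Depth limits Snhg8, with 259 reads, most.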
